A study of Mus musculus with 24 samples.

Results

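The 10 genes described here carry long-chain fatty acids into the muscle fibre and through mitochondrial beta oxidation. They were taken from a fixed list of symbols, matched to Ensembl identifiers, and are 10 of the 55416 genes counted. Cd36, Lpl and Fabp3 serve uptake, Acsl1, Cpt1b and Cpt2 serve activation and entry into mitochondria, and Acadl, Acadvl, Hadha and Hadhb serve beta oxidation. Each of the 10 passed the filter on low counts, which kept 16408 genes.

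Gastrocnemius muscle was taken from wild-type mice of the strain labelled C56BL6J. Sham mice were ambulatory, and SMC mice lived for 8 weeks in a small mouse cage, which restricts spontaneous movement. Each sex had 6 sham and 6 SMC mice, giving 4 groups and 24 libraries, 1 per mouse. The comparisons ask whether transcripts of fatty acid use differ after SMC in either sex, and whether the sexes respond differently. The mice carried no engineered allele. All of them were fasted for 4 hours and given ketamine with xylazine as anaesthetic before tissue was taken.

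Fatty acids reach muscle as circulating triglyceride or bound to albumin. After release and uptake they are bound by carrier proteins, joined to coenzyme A, and passed across the mitochondrial membranes as carnitine esters. Beta oxidation then removes acetyl units in a repeating cycle of dehydrogenation, hydration, dehydrogenation and thiolysis. Slow oxidative fibres of skeletal muscle are known for a high capacity for this pathway.

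Upstream sequences from RefSeq (build GRCm38.p6) were found for 8 of the 10 genes. Lpl and Cpt1b had no entry. The 250 bases before each start were searched on both strands for AGGTCA, a hexamer bound by nuclear receptors, and for the promoter elements known as the GC box (GGGCGG), the CCAAT box and the TATA box (TATAAA). Among all 32851 windows of this length, 14% held AGGTCA, 32.7% GGGCGG, 33.8% CCAAT and 12.4% TATAAA. Of the 8 genes, Cd36 and Acadvl held AGGTCA, while none held TATAAA. The GC box stood before Cd36, Acsl1, Cpt2, Acadl, Hadha and Hadhb, and CCAAT before Cd36 and in the second of 2 windows of Acsl1.

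Hadha and Hadhb, the genes for the alpha and beta subunits of the mitochondrial trifunctional protein, are transcribed in opposite directions from starts with 272 bases between them. Their 250-base upstream windows share 228 bases. The sequence before Hadhb is shown because both genes read from it. Cd36 and Acadvl are shown for their AGGTCA match, and Fabp3 because its level varied most between mice. Capitals mark AGGTCA and GGGCGG on either strand.
Hadhb, chr5:30155003-30155252, plus strand: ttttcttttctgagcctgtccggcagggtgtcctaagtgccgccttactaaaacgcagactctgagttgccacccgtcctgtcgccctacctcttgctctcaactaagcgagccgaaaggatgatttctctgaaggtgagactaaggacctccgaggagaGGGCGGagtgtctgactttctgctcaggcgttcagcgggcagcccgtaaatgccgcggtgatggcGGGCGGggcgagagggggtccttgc
Cd36, chr5:17835897-17836146, minus strand: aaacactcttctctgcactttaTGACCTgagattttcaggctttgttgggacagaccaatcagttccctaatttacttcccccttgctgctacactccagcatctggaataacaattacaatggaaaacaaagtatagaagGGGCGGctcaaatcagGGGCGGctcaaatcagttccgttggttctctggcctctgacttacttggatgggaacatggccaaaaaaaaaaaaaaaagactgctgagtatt
Acadvl, chr11:70015429-70015678, minus strand: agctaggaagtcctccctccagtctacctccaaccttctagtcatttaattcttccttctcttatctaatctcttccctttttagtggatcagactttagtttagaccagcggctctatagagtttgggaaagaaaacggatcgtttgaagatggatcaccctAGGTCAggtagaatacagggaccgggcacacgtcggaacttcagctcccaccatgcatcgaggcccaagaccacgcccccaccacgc
Fabp3, chr4:130308488-130308737, plus strand: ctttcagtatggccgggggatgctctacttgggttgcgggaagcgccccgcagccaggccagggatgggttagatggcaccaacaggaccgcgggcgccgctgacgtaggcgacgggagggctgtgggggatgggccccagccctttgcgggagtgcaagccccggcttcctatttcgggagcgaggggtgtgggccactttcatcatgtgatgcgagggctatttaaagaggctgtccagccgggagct
A match is a description of the letters and was not related to binding.

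Total counts per library lay between 23026627 and 36880413, and the 10 genes together took 0.0909% to 0.44% of them. Levels are given as CPM, counts scaled to an equal library size, where TMM, a factor that equalizes the bulk of genes, adjusts that size. The 7 skeletal muscle markers were detected in every group and summed to 141600 to 370700 CPM per library. A slow fibre score, the mean log2 CPM of 10 slow fibre genes such as Myh7 and Tnni1, was 6.06 ± 2.04 in male sham (SD, n = 6), 6.77 ± 0.885 in male SMC, 6.26 ± 2.28 in female sham and 7.45 ± 0.602 in female SMC. Male sham mouse 4 and female sham mouse 7 stood apart with scores of 1.96 and 1.67, while the other 22 mice lay between 5.42 and 8.08. In bulk muscle, fewer cells of one type and less RNA per cell cannot be told apart.

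Compared per kilobase of exon, Fabp3 was the most abundant member, with a mean level of 249.3 CPM per kb over 24 mice. Acadl (76.19 CPM per kb), Cd36 (75.92) and Acadvl (69.67) followed at levels that did not differ beyond their spread. Acadl exceeded Cd36 in 14 of 24 mice, and Cd36 exceeded Acadvl in 17. Lpl stood at 46.93 CPM per kb, below Acadvl in 24 of 24 mice. Hadha (33.42 CPM per kb), Acsl1 (32.01) and Hadhb (31.93) had means close together. Hadha exceeded Acsl1 in 14 of 24 mice, and Acsl1 exceeded Hadhb in 13. Cpt2 (19.81 CPM per kb) and Cpt1b (13.21) had the lowest means. Cpt2 lay below Hadhb and above Cpt1b in 24 of 24 mice. Lpl fell below Cpt2 in male sham mouse 4 (10.4 against 12 CPM per kb) and in female sham mouse 7 (13.15 against 14.9).

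The middle of this order depended on the length used. On the principal transcript in place of all exons, a choice made after seeing the data, Fabp3 was again first and Cpt2 and Cpt1b last, but Lpl stood at 119.5 CPM per kb and Hadhb at 102.8, next after Fabp3. The level of Cpt1b is uncertain on either length, because 81.4% of its exonic bases are shared with Gm44502 on the same strand, which held at most 3 counts in any library. Acadvl shares 42.9% of its exonic bases with Dvl2 on the opposite strand, and whether counting used strand is not given in the sources used here. These shared bases are the same in every mouse.

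**Figure D1:**
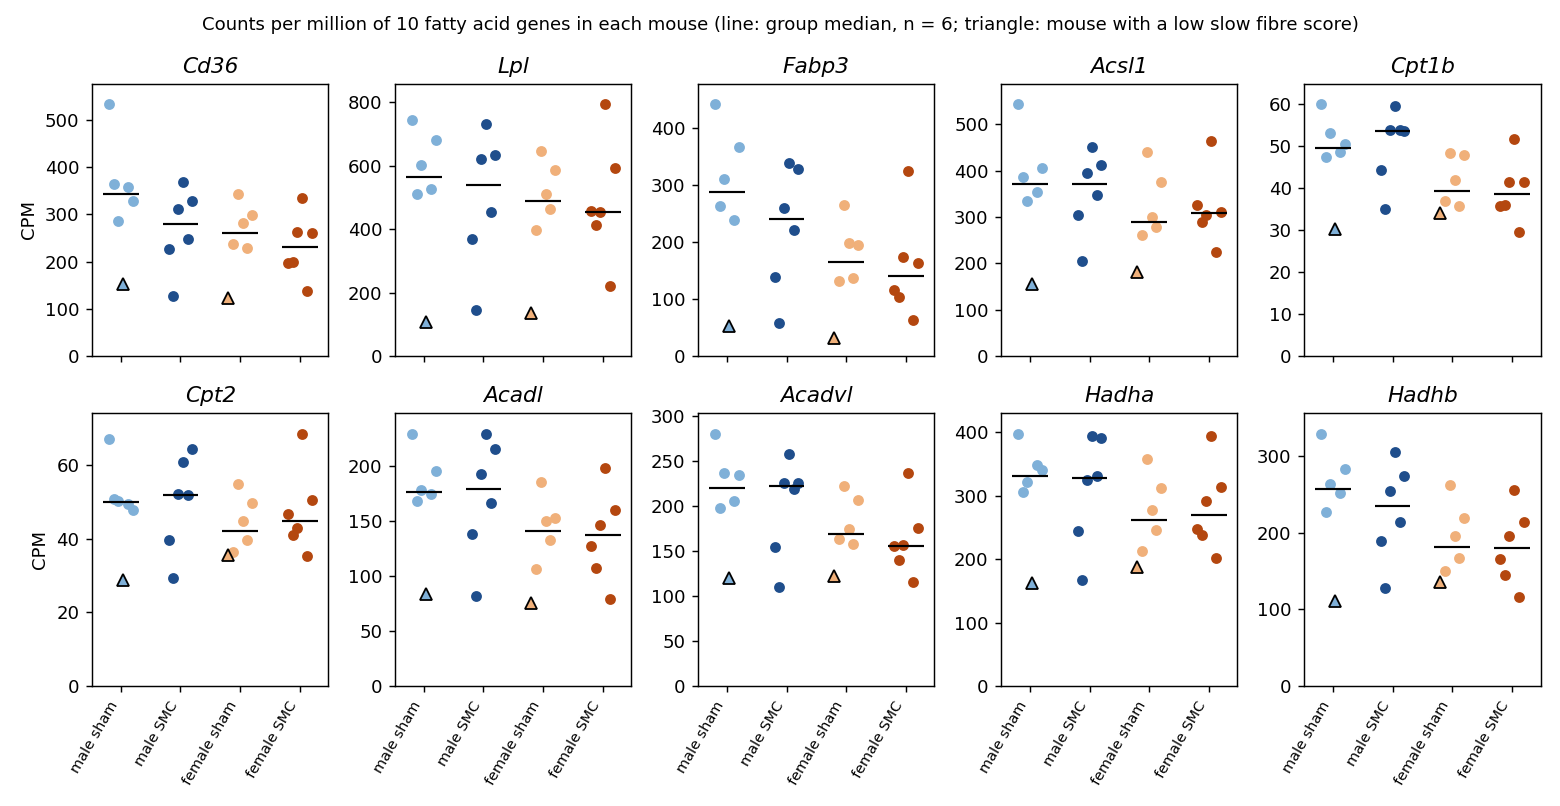
Each panel plots 1 gene, with CPM on a linear axis from 0 and the 4 groups side by side. Points are mice, lines are group medians (n = 6), and triangles are male sham mouse 4 and female sham mouse 7, whose slow fibre scores were 1.96 and 1.67. The 4 groups overlap in all 10 panels.

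The uptake genes come first. Cd36 (ENSMUSG00000002944), the membrane transporter for long-chain fatty acids, had a median of 342.7 CPM in male sham (range 152.1 to 533.5) and 279.9 in male SMC (128.1 to 368.3). In females it ranged from 124.1 to 344 CPM in sham (median 259.9) and from 138 to 335.5 in SMC (median 230.3). The SMC and sham ranges overlapped in both sexes, and the medians were lower in SMC. Only mouse 1 of male sham lay above every male SMC mouse, and the next male sham mouse stood at 364.2 CPM. The fitted log2 difference was -0.33 in males (SE 0.268, 95% interval -0.881 to 0.226, FDR 0.716 by edgeR) and -0.12 in females (SE 0.268, FDR 0.901).

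Lpl (ENSMUSG00000015568) encodes lipoprotein lipase, which frees fatty acids from circulating triglyceride. Its median was 564.1 CPM in male sham (range 109 to 742.8) and 537.9 in male SMC (146.3 to 729.6). Female sham spanned 137.8 to 644.6 CPM (median 487.9), and female SMC 220.7 to 794.6 (median 454.5). In male sham a single mouse, mouse 4, lay far below the other 5, which began at 510.1 CPM. The log2 difference was -0.10 in males (95% interval -0.909 to 0.706) and 0.10 in females (-0.711 to 0.904).

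Fabp3 (ENSMUSG00000028773), the cytosolic fatty acid carrier of heart and muscle, had the widest spread of the 10, with an SD of 0.992 log2 units within groups. Male sham mice spanned 52.4 to 441.9 CPM (median 286.7) and male SMC mice 58.16 to 338.7 (median 240.2). Female sham mice spanned 32.51 to 264.9 CPM (median 165.6) and female SMC mice 64.01 to 324 (median 140.2). Both male groups reached higher than female sham, yet all 4 ranges overlapped. The log2 difference after SMC was -0.32 in males (SE 0.463, 95% interval -1.272 to 0.64) and -0.02 in females (-0.976 to 0.936).

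Activation and entry genes varied less. Acsl1 (ENSMUSG00000018796), which joins long-chain fatty acids to coenzyme A, spanned 155.3 to 543.6 CPM in male sham (median 370.4) and 205.3 to 450.7 in male SMC (median 371). In females it spanned 180.5 to 439.7 CPM in sham (median 289.9) and 224.7 to 464.4 in SMC (median 308.4). Its sham and SMC medians were almost level in males, and all ranges overlapped. The log2 differences were -0.05 (males, SE 0.236) and 0.06 (females, SE 0.236).

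Cpt1b (ENSMUSG00000078937), the muscle form of the outer-membrane carnitine palmitoyltransferase that controls entry, varied least, with a within-group SD of 0.279 log2 units. It spanned 30.26 to 59.94 CPM in male sham (median 49.38) and 34.96 to 59.44 in male SMC (median 53.59). Female sham mice held 33.97 to 48.31 CPM (median 39.3), and female SMC mice 29.55 to 51.51 (median 38.57). Medians were higher in males than in females in both housing conditions, with overlapping ranges. Its interval after SMC was the narrowest of the 10, at -0.255 to 0.353 in males around 0.05 and -0.361 to 0.25 in females around -0.06.

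Cpt2 (ENSMUSG00000028607), the inner-membrane partner of Cpt1b, spanned 28.68 to 66.85 CPM in male sham (median 49.86) and 29.18 to 64.18 in male SMC (median 51.91). Female sham mice spanned 35.63 to 54.9 CPM (median 42.08) and female SMC mice 35.39 to 68.47 (median 44.76). Its ranges overlapped throughout. The log2 difference was 0.02 in males (SE 0.187) and 0.13 in females (SE 0.187, FDR 0.84).

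The dehydrogenases open the beta oxidation cycle. Acadl (ENSMUSG00000026003), for long-chain acyl groups, spanned 83.16 to 229.1 CPM in male sham (median 176.3) and 81.95 to 228.5 in male SMC (median 179.1). Female sham mice spanned 75.45 to 185.2 CPM (median 141) and female SMC mice 78.89 to 198 (median 136.6). The lowest and highest male mice were almost level between sham and SMC. Acadvl (ENSMUSG00000018574), for very-long-chain acyl groups, had medians of 220.1 and 222.3 CPM in male sham and male SMC, and of 168.8 and 155.7 in female sham and female SMC. The log2 differences in males were -0.01 for Acadl (SE 0.25) and -0.10 for Acadvl (SE 0.202), and in females 0.03 (SE 0.251) and -0.10 (SE 0.202).

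Hadha (ENSMUSG00000025745) spanned 161.7 to 397.6 CPM in male sham (median 331.1), 166.9 to 393.7 in male SMC (median 327.5), 187.4 to 357.6 in female sham (median 261) and 200.9 to 393.2 in female SMC (median 269.4). Hadhb (ENSMUSG00000059447) spanned 111.1 to 329.5 CPM in male sham (median 257.5), 127.8 to 305.3 in male SMC (median 234.6), 135.1 to 262.8 in female sham (median 181.8) and 115.8 to 256.1 in female SMC (median 180.4). Neither subunit separated any pair of groups. Log2 differences after SMC were -0.02 (Hadha, SE 0.212) and -0.10 (Hadhb, SE 0.23) in males, and 0.08 and -0.05 in females.

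Counted over the list, none of the 10 passed the test after SMC. In males 0 of 10 were called at an FDR under 0.05 by edgeR's quasi-likelihood test, where 0% of all tested genes were called, and 0 of 10 had an unadjusted p under 0.05, against 11% of all genes. Point estimates were below 0 for 8 of the 10, against 50.9% of all genes, with a median log2 difference of -0.0706 beside -0.0044 over all genes. Single libraries decide this count and median, with 10 of 10 below 0 and a median of -0.2166 without male sham mouse 4, 10 of 10 and -0.1628 without male SMC mouse 16, 4 of 10 and 0.0354 without male sham mouse 1, and 2 of 10 and 0.0793 without male SMC mouse 14. In females 0 of 10 were called, against 0.341% of all genes, and 0 had an unadjusted p under 0.05, against 12.5%. The female estimates were split evenly, 5 below 0 and 5 above, with a median of 0.0037, where 52.4% of all genes were below 0. This split also turned on single libraries, from 10 of 10 below 0 without female SMC mouse 22 (median -0.1248) to 2 of 10 without female SMC mouse 23 (median 0.1462). No member separated sham from SMC in either sex, where 0.591% of all genes were higher and 0.311% lower without overlap in males, and 0.396% and 0.634% in females.

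Averaged over both sexes, 12 SMC mice against 12 sham mice, again 0 of 10 were called, against 2.36% of all genes, and 0 had an unadjusted p under 0.05, against 17.5%. Below 0 were 6 of the 10, against 52.4% of all genes, and 10 of 10 without both mice of low slow fibre score, with a median of -0.1612 in place of -0.0029. With 1 library left out the count ran from 4 to 9. Estimates ran from -0.22 for Cd36 (SE 0.19, FDR 0.584) to 0.07 for Cpt2 (SE 0.132, FDR 0.827). The sex difference in the response, male minus female, ran from -0.30 for Fabp3 to 0.10 for Cpt1b with FDRs of 0.997 or more, and 0 of 10 were called, against 0% of all genes, with 0 at an unadjusted p under 0.05, against 5.13%. Of these estimates 8 were below 0, against 48.4% of all genes, and with 1 library left out from 2 (without female SMC mouse 22) to 10 (without male sham mouse 4). DESeq2 and limma also called none of the 10 in these comparisons, against 4.72% and 3.3% of all genes averaged. For the sex difference they called 0.00611% and 0% of all genes. The intervals are wide for the uptake genes, so that for Fabp3 in males a fall of up to 1.272 and a rise of up to 0.64 on the log2 scale were not distinguished from no change.

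Sham males and sham females were compared to describe the sexes without SMC. All 10 point estimates were higher in males, against 49.6% of all genes, with a median log2 difference of 0.266, and 0 of 10 were called, against 1.97% of all genes, with 0 at an unadjusted p under 0.05, against 15.5%. Without male sham mouse 4 the median was 0.4214 and 6 of 10 had an unadjusted p under 0.05, against 18.4% of all genes, and without both mice of low slow fibre score it was 0.3193 with 3 of 10, against 19.8%. In both fits 0 were called, against 2.94% and 3.09% of all genes. The largest were 0.80 for Fabp3 (SE 0.466, FDR 0.422) and 0.42 for Cd36 (SE 0.269, FDR 0.477), and the smallest was 0.17 for Cpt2. No member separated the 2 sexes, where 0.609% of all genes were higher and 0.524% lower in every male than in every female. The 10 genes rise and fall together between mice, as described next, and 10 estimates of one sign are not 10 separate observations.

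The members moved as 1 block between mice. In each of the 4 groups a single mouse held the lowest value of all 10 genes: male sham mouse 4, male SMC mouse 14, female sham mouse 7 and female SMC mouse 23. The highest values also came from the same mouse, mouse 1 in male sham, mouse 9 in female sham and mouse 22 in female SMC for all 10 genes, and mouse 16 in male SMC for 9 of them. With group means removed, the 45 pairs of members had Pearson's r of 0.892 to 0.98 over 24 mice (median 0.948), and 0.902 to 0.985 without the 2 mice of lowest slow fibre score. Hadha and Hadhb, which share the sequence printed above, had an r of 0.979 (Spearman's rho 0.961, both with a permutation p of 1e-05, the smallest that 100000 resamples give), and an r of 0.964 without male sham mouse 4 and male SMC mouse 14. That value lies within the range of the other pairs.

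**Figure D2:**
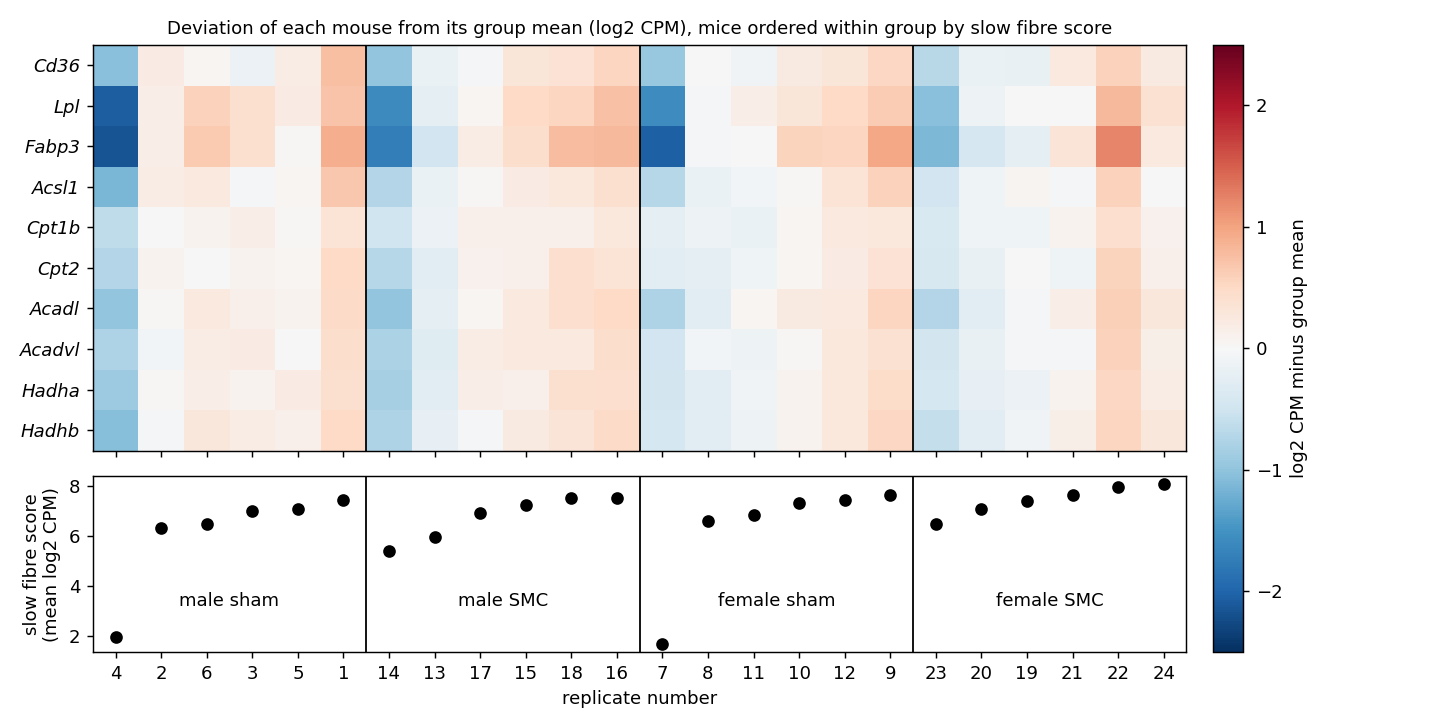
The upper panel shows, for each mouse (column) and member (row), log2 CPM minus the group mean, and the lower panel the slow fibre score of the same mouse in mean log2 CPM. Columns are ordered by that score within each group, and the lowest mouse of each group (4, 14, 7 and 23) is blue in all 10 rows.

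The block followed the slow fibre genes. Over 24 mice with group means removed, Pearson's r with the slow fibre score ran from 0.721 for Cpt2 (Spearman's rho 0.777, adjusted permutation p 0.00014) to 0.907 for Lpl (rho 0.833, adjusted p 1.57e-05), with Benjamini-Hochberg adjustment over 11 relations. All 10 adjusted p values were 0.00014 or less. Without male sham mouse 4 and female sham mouse 7, the 2 mice farthest from the median score, r ran from 0.827 for Acsl1 to 0.935 for Hadha, so the relation did not rest on them. The level did not follow the score in proportion. Male sham mouse 4 (score 1.96) and male SMC mouse 14 (score 5.42) held 28.68 and 29.18 CPM of Cpt2 and 161.7 and 166.9 CPM of Hadha, almost the same, against 109 and 146.3 CPM of Lpl. Within a library all genes share its depth and scaling, and members and score come from the same libraries.

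**Figure D3:**
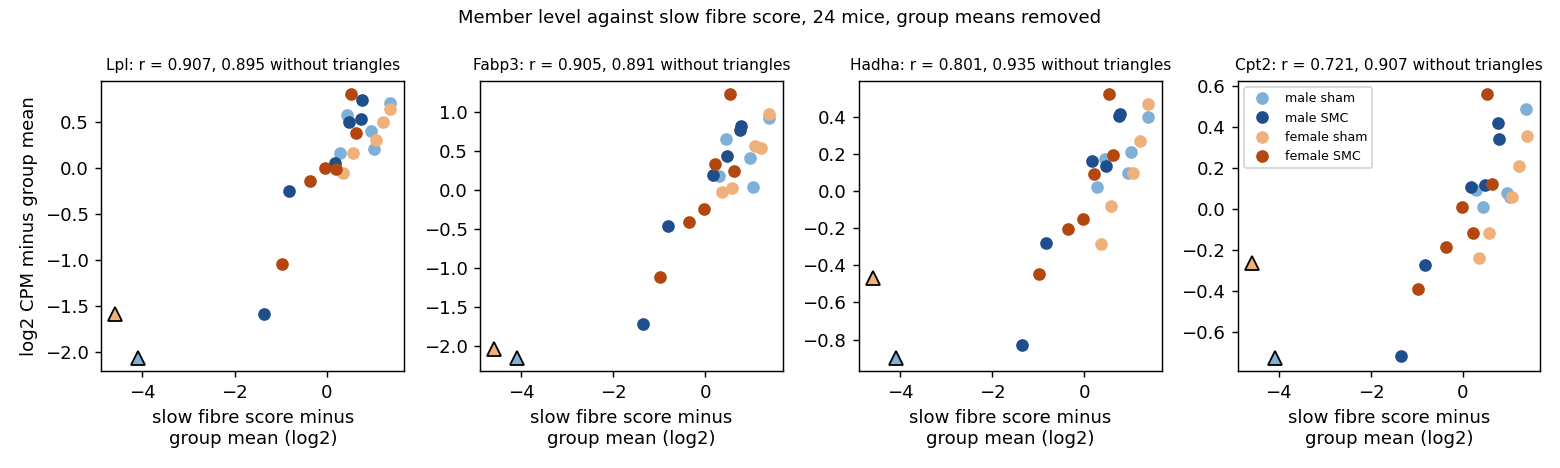
Each panel plots log2 CPM of 1 gene minus the group mean against the slow fibre score minus its group mean, for 24 mice coloured by group. Triangles are male sham mouse 4 and female sham mouse 7, and r is 0.907 for Lpl, 0.905 for Fabp3, 0.801 for Hadha and 0.721 for Cpt2 with them, and 0.895, 0.891, 0.935 and 0.907 without them.

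Markers of other cells that use these genes were read beside this. The sum of 7 endothelial markers was lowest in the same mice in 3 groups, at 346.9 CPM in male sham mouse 4, 353.5 in male SMC mouse 14 and 282.7 in female sham mouse 7, against highest sums of 401.2, 481.1 and 410.1 in those groups. In female SMC it was lowest in mouse 19, at 335.4 CPM. Vwf, a marker of this list, went the other way. It was highest in male sham mouse 4 (90.77 CPM), male SMC mouse 14 (92.84) and female sham mouse 7 (90.85). The other endothelial markers were each lowest in these mice. The sum of 7 adipocyte markers ranged from 68.97 to 297.6 CPM over all mice, and among male sham mice it was highest in mouse 4, at 171.2 CPM. All genes of both lists were detected in every group. Whether these cells had a part in the levels of Cd36 and Lpl was not tested.

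Outside the members and the genes of the lists, the 5 genes of 16328 that followed the members' mean most closely were Hsdl2 (r of 0.981 over 24 mice), Mdh1 (0.979), Ephx2 (0.976), Idh2 (0.972) and Fndc5 (0.971). Mdh1 and Idh2 encode cytosolic malate dehydrogenase and mitochondrial isocitrate dehydrogenase. Without the 2 mice of lowest slow fibre score these r were 0.956 to 0.968.

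When the slow fibre score was entered as a covariate, so that mice were compared at an equal score, the spread of the members shrank and their estimates after SMC moved down. Averaged over both sexes, 2 of 10 were then called, both lower, against 4.47% of all genes called in that fit. These were Cd36 at -0.46 (SE 0.112, FDR 0.0237 by edgeR) and Fabp3 at -0.59 (SE 0.17, FDR 0.0486). In males 0 of 10 were called, against 0.0792% of all genes, and 2 had an unadjusted p under 0.05, against 13.8%. In females 0 were called, against 1.14%, and 3 had an unadjusted p under 0.05, against 16.7%. Sham males against sham females gave 1 of 10, Fabp3 at 0.92 (SE 0.227, FDR 0.0222), against 4.22% of all genes.

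Another fit, chosen after seeing the data, also left out male sham mouse 4 and female sham mouse 7. Averaged over both sexes it called 6 of 10 lower after SMC, against 6.08% of all genes, and 9 had an unadjusted p under 0.05, against 22.7%. They were Fabp3 at -0.63 (SE 0.131, FDR 0.00874), Cd36 at -0.47 (SE 0.0815, FDR 0.00361), Lpl at -0.39, Acadvl at -0.28, Hadhb at -0.27 and Acadl at -0.23, while Acsl1, Cpt1b, Cpt2 and Hadha were not called, at -0.19, -0.12, -0.08 and -0.16. In females 1 of 10 was called, Cd36 at -0.45 (FDR 0.0495), against 1.9% of all genes. In males 0 of 10 were called, against 0.0785% of all genes, and Cd36 stood at -0.49 (FDR 0.0889). The sex difference in the response was called for 0 of 10, against 0% of all genes, from -0.07 for Fabp3 to 0.15 for Cpt1b.

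In the same fit 9 of 10 members were called higher in sham males than in sham females, against 6.98% of all genes. The 2 mice left out held the lowest values of all 10 members in their groups. Because the members rise and fall together between mice, the calls here and in the averaged comparison cannot be counted as separate observations. Fabp3 was higher by 1.18 on the log2 scale (SE 0.198, FDR 0.00135), Hadhb by 0.64 (SE 0.0926, FDR 0.000352) and Cpt1b by 0.42 (SE 0.0714, FDR 0.00135), and Lpl, at 0.52, had an FDR of 0.0515. Leaving out both mice without the covariate called 0 of 10 in every comparison, so the calls required the covariate. Of all genes that fit called 0% in males, 0.936% in females, 3.18% averaged, 0% for the sex difference and 3.09% between sham sexes. Over all mice the score's mean was 6.06 and 6.77 in male sham and SMC, and 6.26 and 7.45 in female sham and SMC. These means include male sham mouse 4 and female sham mouse 7, which the fit with these calls left out. Without mouse 4, male sham scores ran from 6.34 to 7.43, within the 5.42 to 7.55 of male SMC. Without mouse 7, female sham scores ran from 6.62 to 7.64, against 6.47 to 8.08 in female SMC. A difference at equal score cannot be told apart from a difference in what the score measures. Of the 10 slow fibre genes 0 were called by edgeR in any comparison over all mice without the covariate, against 0% to 2.36% of all genes. Their point estimates after SMC were higher for 6 of 10 in males, 10 of 10 in females and 9 of 10 averaged. The median log2 differences were 0.5081, 0.6131 and 0.5458. Whether this lean had a part in the lower estimates of the members with the covariate was not tested.

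**Figure D4:**
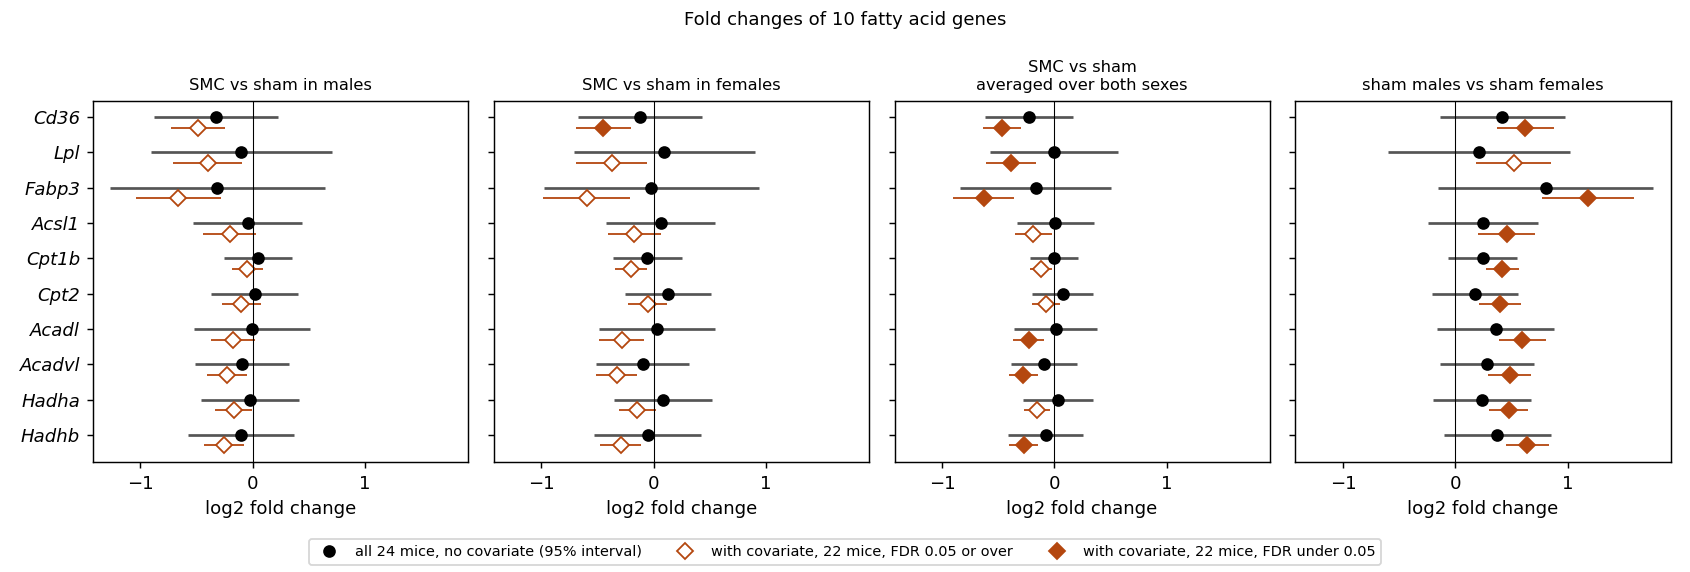
Each panel gives the log2 fold changes of the 10 genes in 1 comparison, with bars for the 95% interval. Black circles are the fit over 24 mice without a covariate, whose intervals all cross 0, and diamonds are the fit with the slow fibre score over 22 mice, filled where the FDR is under 0.05 (6 of 10 in the averaged comparison and 9 of 10 between sham sexes).

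The rest of the pathway was read from a list of 61 other genes, of which 60 were tested. In males 0 of 60 were called, against 0% of all genes. The lowest p belonged to Acot2, a mitochondrial thioesterase that splits acyl-CoA, which spanned 36.58 to 68.06 CPM in sham and 18.05 to 36.09 in SMC. These ranges did not overlap, and the log2 difference was -0.73 (SE 0.23, FDR 0.235), where 0.311% of all genes were lower without overlap. Eci2 at -0.25 (FDR 0.382) and Pdk4 at -0.51 (FDR 0.456) came next.

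In females 2 of 60 were called, both lower, where 0.341% of all genes were called, 36 of 56 of them lower. Pdk4, the kinase that shuts pyruvate dehydrogenase when fat is burned, spanned 1614 to 2722 CPM in female sham and 447.9 to 1530 in female SMC, without overlap, as in 0.634% of all genes in that direction. Its log2 difference was -1.12 (SE 0.251, FDR 0.0496). Ucp3, an uncoupling protein of muscle mitochondria, spanned 177.9 to 618.1 CPM in sham and 95.65 to 189.6 in SMC, with overlap, at -1.13 (SE 0.251, FDR 0.0496), and at -0.82 without female sham mouse 7, its highest mouse. Both FDRs lie at the threshold. With 1 library left out at a time, Pdk4 was called in 4 and Ucp3 in 3 of 24 fits, and 20 and 21 fits gave FDRs from 0.0507 up to 0.129.

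Averaged over both sexes 3 of 60 were called, all lower, where 2.36% of all genes were called. They were Pdk4 at -0.82 (SE 0.176, FDR 0.0166), Ucp3 at -0.74 (SE 0.176, FDR 0.0261) and Acot2 at -0.70 (SE 0.163, FDR 0.0242), and each was called in all 24 fits with 1 library left out. Acot2 is a close paralog of Acot1, named after its values were seen, which had -0.73 (FDR 0.3), and reads shared between them could be split either way by the counting. The other 11 beta oxidation genes of the list ran from -0.11 to 0.07, and the 3 electron transfer genes from -0.21 to -0.04, with 0 called in either group. Of the 60, 38 had estimates below 0, against 52.4% of all genes. For the sex difference in the response 0 of 60 were called, against 0% of all genes. The lowest p there belonged to Hsd17b10 at -0.24, Pparg at -0.60 and Ucp3 at 0.78, with FDRs of 0.926 or more.

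Between sham sexes 1 of 60 was called, where 1.97% of all genes were, so the share is near the background. Acsl3, another acyl-CoA synthetase, spanned 15.81 to 23.91 CPM in sham males and 8.76 to 12.73 in sham females, without overlap, at 0.77 (SE 0.138, FDR 0.00284). In this Acsl3 differed from Acsl1, whose ranges overlapped and whose difference was 0.25 (FDR 0.648).

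**Figure D5:**
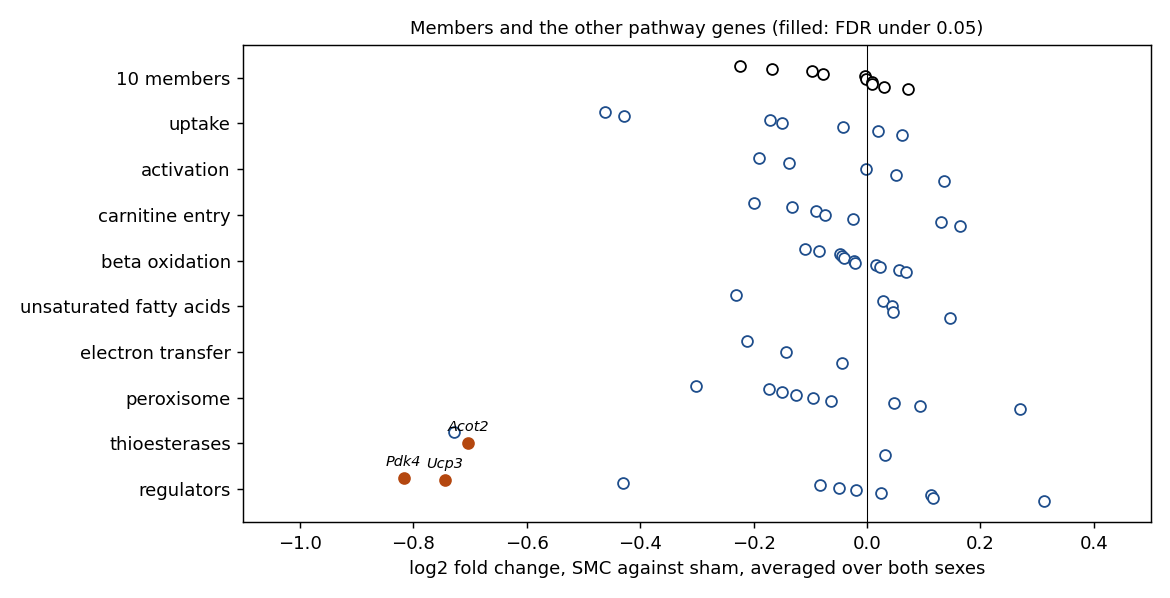
The horizontal axis is the log2 fold change of SMC against sham averaged over both sexes, and each row is the 10 members or 1 role of the 60 other pathway genes. Each circle is a gene, filled where the FDR is under 0.05 (Pdk4, Ucp3 and Acot2, between -0.82 and -0.70), while the 10 members lie between -0.22 and 0.07.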

How the data were processed

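Libraries were made from total RNA of gastrocnemius muscle with a directional kit after depletion of ribosomal RNA. The authors deposited raw counts per Ensembl gene and mouse, without normalization. The submitters' processing notes name cutadapt 1.16, STAR 2.7.9a, featureCounts 1.6, DESeq2 1.34.0 and the build GRCm39. The annotation release and the strand setting are not given in the sources used here.

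Groups came from the labelled sex and treatment. Counts were filtered with filterByExpr, normalized by TMM and fitted with edgeR 4.0.16 (quasi-likelihood, 1 mean per group, all 24 libraries, R 4.3.3). Tests were two-sided, with Benjamini-Hochberg adjustment over 16408 genes and FDR under 0.05. Between mice the fit gave a common BCV of 0.206. Log2 CPM used a prior count of 2. Exonic lengths came from GENCODE M21, by identifier. Alternatives were DESeq2 1.42.0, limma 3.58.1, other scalings and filters, fewer samples, and the slow fibre score as a covariate. The pipeline was tested on simulated data. Among 60 pairs of libraries within groups chi-square per degree of freedom was never under 9.77, so no library was counted as a duplicate. Named genes were all members, the called pathway genes or else the 3 of lowest p, and the 5 genes most like the members. Members, lists and rules were chosen with earlier results of these data known. P values measure the spread between labelled mice, and depth adds counting error, which the fit includes.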

Additional observations from a re-analysis of the deposited data

Results flagged for a closer look

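In male sham, mouse 4 lay far from the other 5 for Lpl, at 109 CPM against 510.1 to 742.8. The same mouse stood apart in slow fibre score, at 1.964 against 6.343 to 7.434, and so did female sham mouse 7, at 1.667 against 6.616 to 7.643. The gap to the nearest mouse took 0.801 and 0.828 of the group's range for the scores of mouse 4 and mouse 7, and 0.633 for Lpl. Of 44 groups of 6 values examined, 3 held such a sample, and chance gives about 2.2. The groups are not separate trials, because the 10 genes rise and fall together between mice. Setting 3 against 2.2 therefore cannot show whether these samples arose by chance. The counts and medians over the 10 genes that move without these mice are given beside the comparisons.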

How the results depend on the processing

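No paired analysis was possible because the replicate numbers in the labels run on through the groups, so no 2 groups share a number. The count of members called was 0 in the 5 comparisons under DESeq2, edgeR with RLE size factors or no scaling factors, both other filters, limma with quality weights, the fits without both mice of low slow fibre score, and all 24 fits with 1 library left out, and in the 3 comparisons of 2 groups with only their 12 samples. The share of all genes called in these fits ran from 0% to 11.3%, the latter averaged without scaling factors.

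Adding the slow fibre score as covariate, members called were 2 (averaged) and 1 (sham sexes), and pathway genes called were 5 of 60 in females and 10 averaged, against 1.14% and 4.47% of all genes. With the covariate and without both mice, members called were 1 in females, 6 averaged and 9 between sham sexes, and pathway genes 7, 18 and 18 of 60, against 1.9%, 6.08% and 6.98% of all genes. With 1 library left out, pathway genes called ran from 0 to 2 in females and from 1 to 2 between sham sexes, the latter 2 without male sham mouse 4. The share of all genes called in these fits ran from 0% to 0.889% in females and from 1.13% to 2.94% between sham sexes. The cause of the changed counts was not tested. Without scaling factors the median of all genes was -0.13 in males, -0.15 in females and -0.14 averaged, and calls over all genes in the averaged comparison were 68 higher and 1793 lower against 169 and 219 with TMM. DESeq2 called 107 genes in males, 268 in females and 772 averaged, where edgeR called 0, 56 and 388. Ucp3 averaged over both sexes lost its call under limma, at -0.50 (FDR 0.0592). In females Pdk4 and Ucp3 lost theirs with RLE size factors (FDR 0.0515), with only the 12 female samples (FDR 0.153) and under limma (FDR 0.0609 and 0.13), and Pdk4 also with no filter (FDR 0.0537).

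Estimates that were not called changed sign under some alternatives (log2 differences), and of these only Acadl averaged, with the covariate and without both mice, was then called. With no scaling factors these were Cpt1b -0.095 and Cpt2 -0.13 in males, Lpl -0.045, Acsl1 -0.068, Acadl -0.11 and Hadha -0.046 in females, Acsl1 -0.14, Cpt2 -0.063, Acadl -0.13 and Hadha -0.11 averaged, and Acadvl -0.0093 for the sex difference. With the covariate they were Cpt1b -0.029 and Cpt2 -0.082 in males, Lpl -0.38, Acsl1 -0.20, Cpt2 -0.066, Acadl -0.26 and Hadha -0.16 in females, Acsl1 -0.19, Cpt2 -0.074, Acadl -0.22 and Hadha -0.15 averaged, and Lpl 0.043, Acsl1 0.029, Acadl 0.085, Hadha 0.013 and Hadhb 0.097 for the sex difference. Without both mice they were Cpt1b -0.063 and Cpt2 -0.10 in males, Lpl -0.089, Acsl1 -0.047 and Acadl -0.089 in females, Acsl1 -0.13, Cpt2 -0.012, Acadl -0.12 and Hadha -0.079 averaged, and Acadvl -0.045 for the sex difference. With the covariate and without both mice they were Cpt1b -0.046 and Cpt2 -0.10 in males, Lpl -0.37, Acsl1 -0.17, Cpt2 -0.051, Acadl -0.28 and Hadha -0.14 in females, Acsl1 -0.19, Cpt2 -0.076, Acadl -0.23 and Hadha -0.16 averaged, and Acadl 0.11 and Hadhb 0.037 for the sex difference. Under limma they were Acadl -0.075 in females, Acsl1 -0.029, Acadl -0.048 and Hadha -0.0197 averaged, and Acadl 0.054 and Hadhb 0.031 for the sex difference. Under DESeq2 they were Lpl 0 averaged, and Acadvl -0.0033 for the sex difference. With RLE size factors there was Acadvl -0.0033 for the sex difference. With no filter there was Acadvl -0.019 for the sex difference.

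With 1 library left out, sign changes gave these ranges. In males they were Acadl from -0.16 to 0.13, Acadvl from -0.22 to 0.029, Acsl1 from -0.21 to 0.0995, Cpt1b from -0.063 to 0.13, Cpt2 from -0.10 to 0.13, Hadha from -0.16 to 0.11, Hadhb from -0.26 to 0.018 and Lpl from -0.32 to 0.089, each lowest without male sham mouse 4. In females they were Acadl from -0.11 to 0.15, Acsl1 from -0.068 to 0.19, Cpt1b from -0.14 to 0.019, Cpt2 from -0.0011 to 0.21, Fabp3 from -0.36 to 0.18, Hadha from -0.035 to 0.18, Hadhb from -0.17 to 0.066 and Lpl from -0.092 to 0.25, each lowest without female SMC mouse 22. Averaged they were Acadl from -0.063 to 0.081, Acsl1 from -0.071 to 0.0804, Cpt1b from -0.058 to 0.039, Hadha from -0.038 to 0.094 and Lpl from -0.11 to 0.092, and for the sex difference Acadl from -0.19 to 0.11, Acadvl from -0.13 to 0.13, Acsl1 from -0.28 to 0.038, Cpt1b from -0.011 to 0.19, Cpt2 from -0.24 to 0.013, Fabp3 from -0.52 to 0.038, Hadha from -0.25 to 0.026 and Hadhb from -0.21 to 0.07. Depth is not the limit for the members, which held at least 667 counts in every library.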
